A study of Homo sapiens with 4 samples.

Results

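The genes described are the 39 aminoacyl-tRNA synthetases and synthetase partner proteins chosen by symbol from a table of 26364 genes. They comprise 20 cytosolic synthetase genes, 16 mitochondrial synthetase genes (symbols ending in 2) and 3 partner proteins of the multi-synthetase complex, AIMP1, AIMP2 and EEF1E1. All 39 had a row, passed 50 counts in all 4 libraries and had a place in the fit described below. The genes were taken by symbol, and this list and the other gene lists used below were set with earlier results of these data known. The libraries came from polysomes of HCT116, a human colorectal carcinoma cell line. Cytoplasmic extract was run on a sucrose gradient, which sorts mRNAs by the number of ribosomes they carry, and pools were taken along the optical density trace. The 4 libraries, 1 per group, were heavy polysomes (10 ribosomes or more) and light polysomes (9 or fewer) of cells labelled Dicer1 knockout, and the same pools of wild type cells. All groups share the HCT116 background, no treatment is given, and the labels do not say where in the gene the change lies or whether the knockout line is 1 clone.

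Aminoacyl-tRNA synthetases join each amino acid to its tRNA and so supply the ribosome with charged tRNA. The cytosolic and mitochondrial enzymes are mostly made from separate nuclear genes, and all are translated in the cytosol. In mammals, several cytosolic synthetases sit with the AIMP scaffold proteins in the multi-synthetase complex, and many cytosolic synthetase genes are known targets of ATF4, the transcription factor of the amino acid and integrated stress response.

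ATF4 acts through CEBP-ATF response elements, and the letters TGATGNAA, the core of such an element, were searched on both strands of promoters running from 250 bases before to 50 bases after each gene's start (RefSeq, GRCh38.p14). Promoters of 33 of the 39 genes were in that table; those of DARS, LARS, VARS, YARS, AARS2 and VARS2 were not. The core was found in 7 of the 33 (21.2%), against 3.67% of 27305 promoters in the table and 2.53% of 15843 promoters of protein-coding genes. It lay in 6 of 16 cytosolic synthetase promoters (37.5%), in 1 of 14 mitochondrial synthetase promoters (7.14%) and in 0 of 3 partner promoters. The 30-base windows that hold it are printed 5′ to 3′ on the strand of each gene, with the core in capitals, because they mark the 6 cytosolic synthetases that are set against the others in the genotype results. The AARS window is chr16:70289675-70289704 (minus strand), CARS chr11:3057407-3057436 (minus), IARS chr9:92293692-92293721 (minus), MARS chr12:57488053-57488082 (plus), NARS chr18:57621804-57621833 (minus), TARS chr5:33440956-33440985 (plus) and YARS2 chr12:32756076-32756105 (minus).
AARS: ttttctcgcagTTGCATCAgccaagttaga
CARS: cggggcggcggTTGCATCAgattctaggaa
IARS: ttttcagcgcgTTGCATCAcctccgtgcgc
MARS: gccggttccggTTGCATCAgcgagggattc
NARS: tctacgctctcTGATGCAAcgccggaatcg
TARS: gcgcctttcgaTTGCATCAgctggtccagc
YARS2: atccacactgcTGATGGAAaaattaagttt
The same 8 letters, read on either strand, stand in all 6 cytosolic windows, and YARS2 differs from them inside the core. In CARS, IARS, MARS and TARS the core lies close to the RefSeq start, in NARS it lies a little after it, and in AARS and YARS2 well upstream. Gene positions given below are those of GENCODE 44, in which starts can differ. The AARS gene there (chr16:70251983-70289707) takes in the whole AARS window. A match describes these letters and is not a shown binding site.

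DICER1, the ribonuclease that cuts precursor microRNAs, was read first as the check of the genotype label. It had 925 counts in heavy and 889 in light polysomes of the labelled knockout, against 500 in heavy and 547 in light polysomes of wild type. The counts were higher in the libraries labelled knockout, 1.93-fold in heavy polysomes (log2 0.95, 95% counting interval 0.79 to 1.11) and 1.94-fold in light polysomes (0.96, 0.81 to 1.11). A count over a whole gene does not show a small deletion, so the label could not be checked from these values and the group is called the labelled knockout throughout.

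Library totals ran from 17457116 to 20933675 counts. Of 8 epithelial line markers, 6 (EPCAM, CDH1, KRT8, KRT18, KRT19 and CLDN4) reached 50 counts in all 4 libraries, VIL1 was at 0 in all 4 and CDX1 did not exceed 2 counts. Of 14 markers of fibroblasts, endothelium and blood, COL1A1 alone did so and DCN, LUM, PTPRC and CD3E were at 0 in all. Their summed counts were 945 and 318 in heavy and light polysomes of the labelled knockout and 492 and 228 in those of wild type. A higher sum stood with the labelled knockout in both fractions, and no marker of other cells but COL1A1 exceeded 16 counts in any library. The part of this difference in the results below was not tested. The spread of heavy to light ratios over the 10834 genes that passed 50 counts in all 4 libraries was narrower in the labelled knockout gradient (SD of log2 ratio 0.90) than in the wild type gradient (1.17), and genotype results are given beside this difference below.

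The first comparison asks which mRNAs sat on heavy and which on light polysomes, with both gradients as the replicates. Synthetase mRNAs were mostly heavy. Of the 39, 33 were called heavy, 1 light (EEF1E1) and 5 neither at an adjusted p under 0.05 (edgeR quasi-likelihood test, Benjamini-Hochberg over 13574 genes), where 30.0% of all tested genes were called heavy and 29.3% light. Their median fitted log2 ratio of heavy over light was 1.49, against -0.07 over all genes tested. The fit has 1 residual degree of freedom. Its spread is the disagreement between the 2 gradients, estimated with values shared over all genes. A small p-value therefore does not rest on the agreement of that gene alone. The 2 gradients are also the 2 genotypes, and nothing in the labels says that they came from separate cultures.

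All 20 cytosolic synthetases were called heavy, with a median log2 ratio of 1.84 and a range from 0.84 for QARS to 2.85 for AARS. AARS, which charges alanine tRNA (GRCh38 chr16:70251983-70289707, minus strand), had 11472 counts in heavy and 2330 in light polysomes of the labelled knockout, against 17406 in heavy and 1949 in light polysomes of wild type. Heavy counts were several times the light counts in both gradients, and the heavy and light groups did not overlap. The fitted ratio was 7.21-fold (log2 2.85, SE 0.33, edgeR adjusted p = 3.81e-15). FARSA, the catalytic subunit of phenylalanine synthetase (chr19:12922479-12934037, minus strand), had 4813 heavy and 1386 light counts in the labelled knockout, against 5775 heavy and 700 light counts in wild type. Its fitted ratio was 5.80-fold (log2 2.54, SE 0.31, edgeR adjusted p = 3.68e-14), again with both heavy libraries above both light libraries. Its partner subunit FARSB lay at 1.74 (SE 0.31), with 5857 heavy and 2266 light counts in the labelled knockout and 7235 heavy and 1968 light counts in wild type.

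The lowest cytosolic members were QARS and KARS, both synthetases of the multi-synthetase complex. QARS, for glutamine (chr3:49095932-49105130, minus strand), had 4661 heavy and 2541 light counts in the labelled knockout, against 5992 heavy and 4064 light counts in wild type. The heavy libraries were the higher ones in both gradients, and the fitted ratio, the lowest of the 20, was 1.79-fold (log2 0.84, SE 0.30, edgeR adjusted p = 0.00993). KARS, for lysine, had 7306 heavy and 4047 light counts in the labelled knockout, against 10280 heavy and 5054 light counts in wild type, a fitted log2 ratio of 1.06 (SE 0.31, edgeR adjusted p = 0.00159). The other 18 lay between 1.45 for YARS, the tyrosine enzyme, and AARS, with standard errors of 0.29 to 0.33, and neighbours in that order stood no further apart than about those errors.

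Other cytosolic members lay between these ends. VARS, for valine, had 7505 heavy and 1820 light counts in the labelled knockout, against 8001 heavy and 1320 light counts in wild type (fitted log2 2.44, SE 0.32). HARS, for histidine, had 4130 heavy and 1276 light counts in the labelled knockout, against 4512 heavy and 1042 light counts in wild type (2.02, SE 0.29). GARS, for glycine, had 11311 heavy and 4087 light counts in the labelled knockout, against 14470 heavy and 3888 light counts in wild type (1.80, SE 0.32). For each of these genes the lowest heavy count was over the highest light count, in counts that were not scaled. The longest of the proteins, EPRS, had 7526 heavy and 2565 light counts in the labelled knockout, against 7465 heavy and 2543 light counts in wild type (1.67, SE 0.31).

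Members of the complex and both enzyme classes had similar fitted ratios. The 8 synthetases of the complex (DARS, EPRS, IARS, KARS, LARS, MARS, QARS and RARS) had a median of 1.67, from QARS to MARS at 2.18, and the 12 other cytosolic synthetases had a median of 1.95. The 9 class I enzymes, which share a Rossmann-fold catalytic domain, had a median of 1.95 and the 10 class II enzymes 1.84; EPRS, which joins a glutamate and a proline enzyme in 1 protein, holds a domain of each class and stood at 1.67. The ranges of these groups overlapped, and no test of the difference between them was made. In each gradient taken alone the complex had the lower median, 1.31 in the labelled knockout and 2.03 in wild type, against 1.55 in the labelled knockout and 2.34 in wild type for the other cytosolic synthetases. Of all 20, 19 had a lower ratio in the labelled knockout than in wild type, QARS being the exception.

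**Figure D1:**
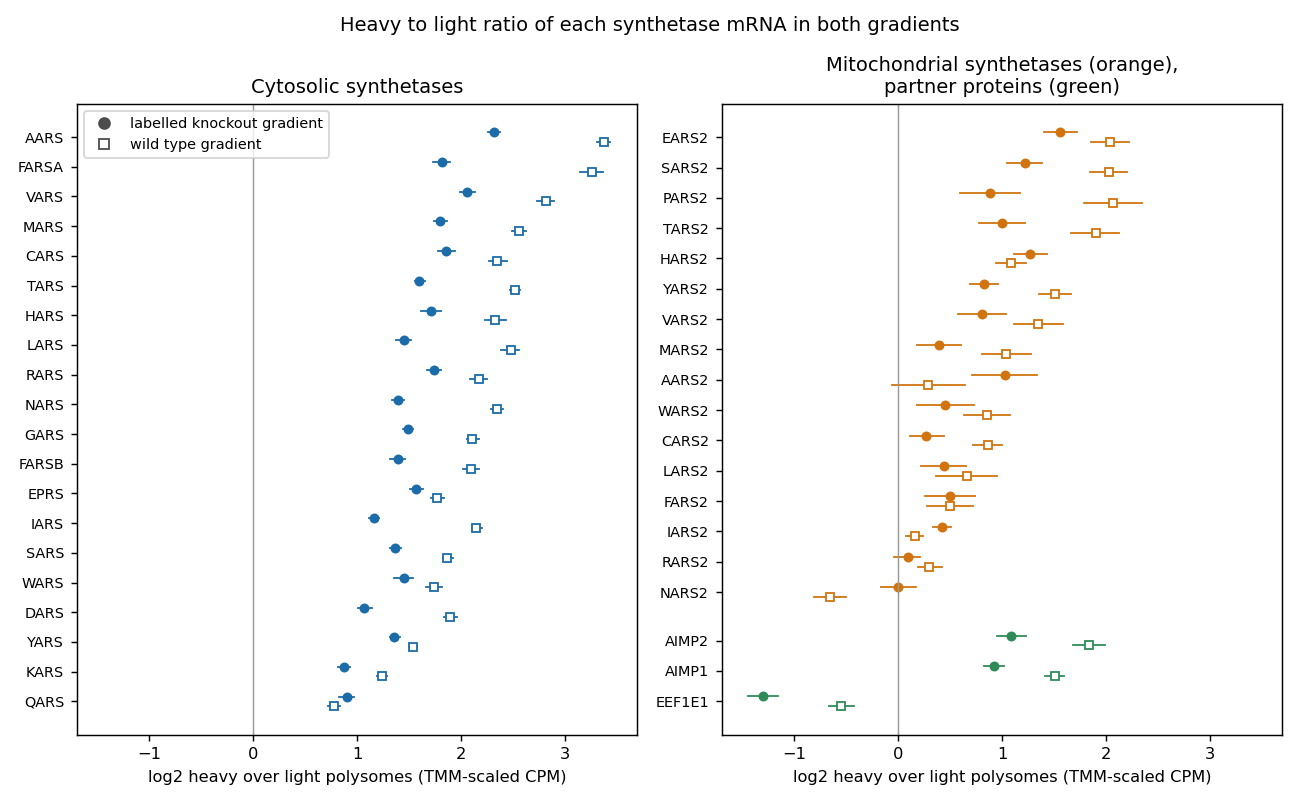
Log2 ratio of heavy over light polysomes (TMM-scaled CPM) of each gene in the labelled knockout gradient (filled circles) and the wild type gradient (open squares), with 95% counting intervals as lines; blue marks cytosolic synthetases, orange mitochondrial synthetases and green partner proteins. All cytosolic synthetases lie above 0 in both gradients, the mitochondrial ones reach down to NARS2, and EEF1E1 lies below 0 in both.

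The mitochondrial synthetases had lower ratios. Of the 16, 11 were called heavy, 0 light and 5 neither (FARS2, IARS2, LARS2, NARS2 and RARS2), with a median fitted log2 ratio of 0.70. The 5 uncalled genes ranged from -0.33 for NARS2 to 0.55 for LARS2, with edgeR adjusted p-values from 0.0608 to 0.533. The heaviest were EARS2 for glutamate at 1.80 (SE 0.27, edgeR adjusted p = 4.51e-10), SARS2 for serine at 1.62 (SE 0.27) and PARS2 for proline at 1.49 (SE 0.27). EARS2 (chr16:23520754-23557731, minus strand) had 1215 heavy and 418 light counts in the labelled knockout, against 1143 heavy and 322 light counts in wild type. The heavy counts of EARS2 were about alike in both gradients and well above the light counts.

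NARS2, the mitochondrial asparagine enzyme (chr11:78435620-78575194, minus strand), was the lowest synthetase. It had 556 heavy and 563 light counts in the labelled knockout, against 535 heavy and 983 light counts in wild type. The 3 lower libraries lay close together and the wild type light library stood above them, so that the log2 ratio was 0.00 (counting interval -0.17 to 0.17) in the labelled knockout gradient and -0.66 (-0.81 to -0.50) in the wild type gradient. IARS2, for isoleucine, had 2377 heavy and 1806 light counts in the labelled knockout, against 1974 heavy and 2063 light counts in wild type, a fitted log2 ratio of 0.29 (SE 0.27, edgeR adjusted p = 0.369). After scaling, the log2 ratio of IARS2 was 0.42 in the labelled knockout gradient and 0.16 in the wild type gradient, small in both. RARS2, for arginine, lay at 0.20 (SE 0.26, edgeR adjusted p = 0.533). Of the 11 calls, 4 were within reach of the threshold, MARS2 at 0.72 (edgeR adjusted p = 0.0117), WARS2 at 0.67 (0.0208), AARS2 at 0.68 (0.0272) and CARS2 at 0.57 (0.0472), and the count of heavy mitochondrial calls was 7 when libraries were scaled by their totals alone. The exons of SARS2 and VARS2 overlap other annotated genes on the same strand over 48.2% and 63% of their length, so reads there may have been split or dropped in counting.

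Partner proteins of the complex went both ways. AIMP1, a scaffold that binds tRNA and the arginine enzyme, had 2576 heavy and 1378 light counts in the labelled knockout, against 2849 heavy and 1167 light counts in wild type. AIMP2, the scaffold on which the complex assembles, had 1262 heavy and 602 light counts in the labelled knockout, against 1338 heavy and 435 light counts in wild type. Both were called heavy, AIMP1 at 1.22 (SE 0.28, edgeR adjusted p = 5.79e-05) and AIMP2 at 1.46 (SE 0.27, edgeR adjusted p = 4.38e-07), and 29.1% of the exon length of AIMP2 overlaps EIF2AK1 on the other strand. EEF1E1, the short protein also called AIMP3 (chr6:8073360-8102559, minus strand), had 521 heavy and 1307 light counts in the labelled knockout, against 864 heavy and 1472 light counts in wild type. Light counts of EEF1E1 were the higher ones in both gradients, and it was called light at 1.90-fold (log2 -0.92, SE 0.27, edgeR adjusted p = 0.0015). Of its exon length 18.8% is shared with the readthrough gene EEF1E1-BLOC1S5 on the same strand, where reads may have been left out or split.

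Coding length sets how many ribosomes an mRNA has room for, and it moved with these ratios. Over all protein-coding genes in the fit, the median log2 ratio was -0.74 for coding sequences of up to 1000 nucleotides, 0.01 for 1000 to 1500, 0.37 for 1500 to 2000, 0.56 for 2000 to 3000 and 0.84 above 3000. Within their length classes, all 20 cytosolic synthetases lay above the class median and 18 above the upper quartile, QARS and KARS being the exceptions. The 9 of 1500 to 2000 nucleotides had a median of 1.74, against an upper quartile of 1.13 over the 1953 genes of that class. The 4 of over 3000 nucleotides (EPRS, IARS, LARS and VARS) had a median of 1.82, against an upper quartile of 1.39 over 1815 genes.

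Mitochondrial synthetases sat closer to genes of their own length. Of the 16, 12 lay above the class median, 6 above the upper quartile and 0 below the lower quartile. The 6 of 1500 to 2000 nucleotides had a median of 0.95 and the 2 of over 3000 nucleotides, IARS2 and VARS2, a median of 0.69, below that of their class. AIMP1 (936 coding nucleotides) and AIMP2 (960) lay above the upper quartile of -0.16 in the shortest class, in which 7.62% of 3873 genes were called heavy. EEF1E1, with 522 coding nucleotides, lay between the quartiles of that class. Among the cytosolic synthetases themselves the class medians were 1.60 for the 1 gene of 1000 to 1500 nucleotides (WARS), 1.74, 2.08 and 1.82 in the classes above it, in order of length. FARSA (1524 nucleotides) stood at 2.54 and EPRS, the longest at 4536 nucleotides, at 1.67.

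**Figure D2:**
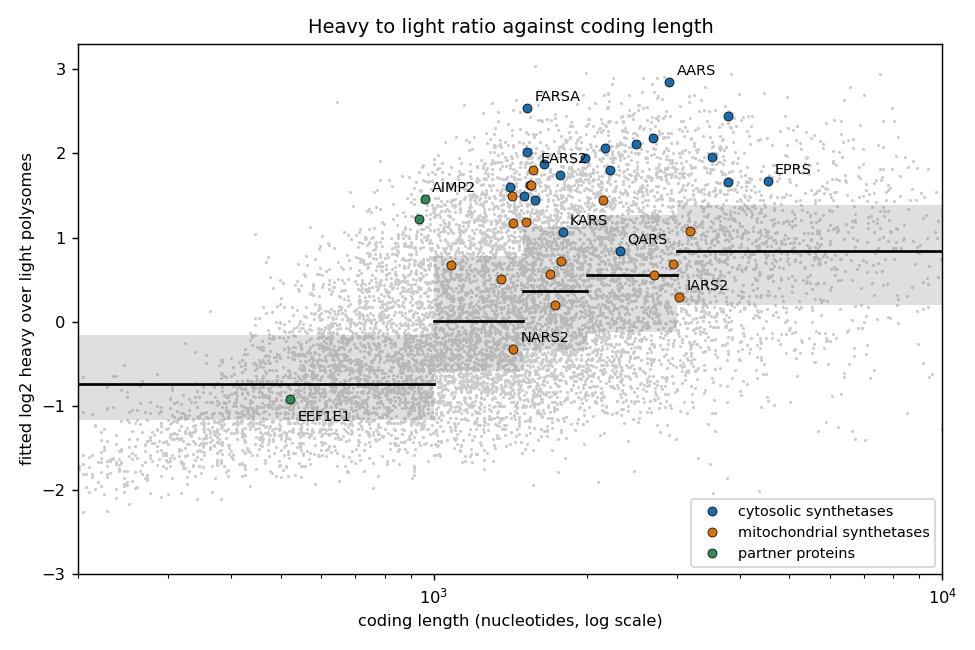
Fitted log2 ratio of heavy over light polysomes against coding length in nucleotides (log scale) for protein-coding genes with 50 counts or more in all 4 libraries (grey, within the axes) and the 39 genes (blue cytosolic, orange mitochondrial, green partners). Black lines and grey bands give the median and quartiles of each length class; 18 cytosolic synthetases lie above their band, and 4 mitochondrial ones (NARS2, RARS2, IARS2 and LARS2) lie below the median of theirs.

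Cytosolic and mitochondrial enzymes for the same amino acid differed in ratio and in level. In 15 of 17 pairs the cytosolic mRNA had the higher fitted log2 ratio, and the median difference over all 17 was 1.36. EPRS was paired with both EARS2 and PARS2, and FARS2 with both FARSA and FARSB, so the pairs are not all separate. The difference was greatest for the asparagine pair (NARS 1.87, NARS2 -0.33), followed by the alanine pair (AARS 2.85, AARS2 0.68) and the phenylalanine pair (FARSA 2.54, FARS2 0.51). SARS and SARS2 had the same ratio of 1.62, and EPRS lay 0.13 below EARS2. TARSL2, a further threonine enzyme of the cytosol outside the 39, lay at 0.91 (SE 0.26), against 2.06 (SE 0.33) for TARS.

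Levels between genes were compared as CPM (counts scaled to a common library size with TMM factors) per kilobase of the canonical transcript in GENCODE 44. In heavy polysomes the median level of cytosolic synthetases was 152 in the labelled knockout and 165 in wild type, and that of mitochondrial synthetases 11.7 in the labelled knockout and 11.5 in wild type. In light polysomes the cytosolic median level was 53.3 in the labelled knockout and 32.6 in wild type, and the mitochondrial median level 6.83 and 6.09. Cytosolic enzymes thus stood higher in every library, and in each of them AARS2 had the lowest level of all 39. The level of AARS2 in heavy polysomes was 2.75 in the labelled knockout and 1.45 in wild type, so that AARS was 67-fold higher per kilobase than AARS2 in heavy polysomes of the labelled knockout and 184-fold higher in those of wild type. In light polysomes the cysteine pair was the closest of the 17 pairs in both genotypes, CARS being 1.78-fold higher than CARS2 in the labelled knockout and 1.47-fold higher in wild type.

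Among cytosolic synthetases the lowest level in all 4 libraries was that of FARSB, 47.9 in heavy polysomes of the labelled knockout and 56.6 in those of wild type. Its canonical transcript of 6761 nucleotides is long for a coding length of 1767, and a shorter transcript in these cells would raise the level. The highest level in heavy polysomes was that of TARS at 339 in the labelled knockout and of SARS at 467 in wild type, and in light polysomes that of SARS at 123 in the labelled knockout and 127 in wild type. Among mitochondrial synthetases IARS2 had the highest level in light polysomes, 27.9 in the labelled knockout and 26.5 in wild type.

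**Figure D3:**
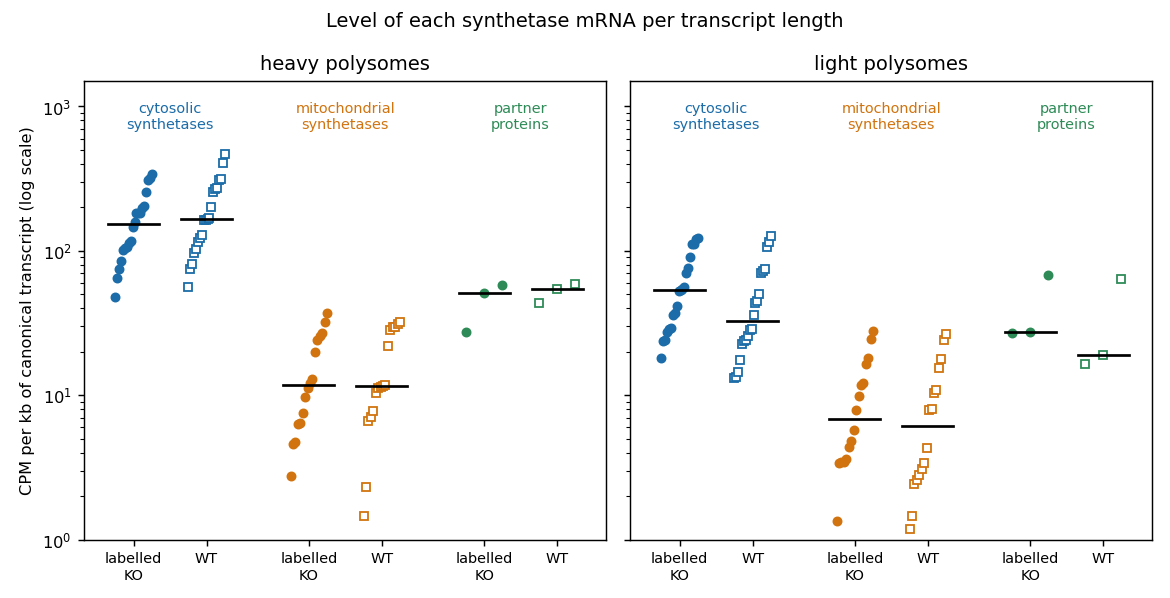
Level of each gene as CPM per kilobase of canonical transcript (log scale) in heavy (left) and light (right) polysomes of the labelled knockout (KO, filled circles) and wild type (WT, open squares); each point is a gene and black lines are medians. Cytosolic synthetases (blue) stand above mitochondrial ones (orange) in every library by their medians, with the medians of partner proteins (green) between them.

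The second comparison asks what differed between the labelled knockout and wild type in heavy polysomes. With 1 library a group there is no replicate check and no p-value, and a gene is counted as higher or lower at 1.5-fold or more among genes whose higher library of the pair reached 50 counts. No libraries of total RNA were analysed, so fewer cells expressing an mRNA, less mRNA per cell and less of it on polysomes cannot be told apart. Of the 39 genes, 2 were higher (AARS2 and LARS2) and 3 lower (PARS2, WARS2 and EEF1E1), where 11.7% of 11567 genes were higher and 10.5% lower, so that the share of synthetase genes past the fold was near or below the background in either direction. The 20 cytosolic synthetases held 0 genes past the fold. Their median log2 ratio was -0.25, against -0.03 over all genes.

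The small cytosolic differences mostly had the same sign. The log2 ratio was below 0 for 17 of 20, with a counting interval below 0 for 15, and above 0 for EPRS (0.08), MARS (0.14) and RARS (0.16), each with an interval above 0. The lowest were SARS and AARS. SARS, for serine, had 11052 counts in labelled knockout heavy polysomes, against 16900 in wild type heavy polysomes, a log2 ratio of -0.55 (counting interval -0.58 to -0.51). AARS stood at -0.54 (-0.57 to -0.50), DARS for aspartate at -0.52 (-0.57 to -0.48) and KARS at -0.43 (-0.47 to -0.39). All 10 class II enzymes lay below 0, with a median of -0.33, against a median of -0.13 for the 9 class I enzymes, and all 12 cytosolic synthetases outside the complex lay below 0, except that VARS and YARS stood above 0 when libraries were scaled by their totals. These intervals cover counting error only and say nothing of the spread between cultures.

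In light polysomes the same mRNAs mostly had higher counts in the labelled knockout. Of the 39 genes, 14 were higher and 0 lower, where 14.5% of 11960 genes were higher and 12.4% lower. Of cytosolic synthetases 8 were higher (FARSA, IARS, LARS, MARS, NARS, RARS, TARS and VARS), of mitochondrial synthetases 5 (EARS2, LARS2, MARS2, TARS2 and YARS2) and of partners AIMP2. With libraries scaled by their totals alone, 4 cytosolic and 3 mitochondrial synthetases were higher and 1 mitochondrial synthetase was lower. The median log2 ratio of cytosolic synthetases was 0.49, with 16 of 20 above 0, and that of mitochondrial synthetases 0.33, against -0.00 over all genes.

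FARSA was the highest of them. It had 1386 counts in labelled knockout light polysomes, against 700 in wild type light polysomes, and after scaling the labelled knockout was 2.37-fold higher (log2 1.24, counting interval 1.11 to 1.37). MARS, for methionine, had 2712 counts in labelled knockout light polysomes, against 1747 in wild type light polysomes, and was 1.86-fold higher (0.89, 0.81 to 0.98); 12.4% of its exon length overlaps ARHGAP9 and DDIT3 on the other strand. In heavy polysomes their ratios were small, -0.20 for FARSA and 0.14 for MARS. QARS was the exception among cytosolic enzymes, with 2541 counts in labelled knockout light polysomes, against 4064 in wild type light polysomes (log2 -0.42, -0.49 to -0.34), and with a ratio below 0 also in heavy polysomes (-0.30, -0.35 to -0.24).

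LARS had 2087 counts in labelled knockout light polysomes, against 1403 in wild type light polysomes (log2 0.83, 0.74 to 0.93). VARS followed at 0.72. IARS, for isoleucine, had 5815 counts in labelled knockout light polysomes, against 4423 in wild type light polysomes, a log2 ratio of 0.66. TARS also stood at 0.66, and NARS for asparagine and RARS for arginine were at the fold itself, both at 0.59. At the low end SARS (-0.05, -0.11 to 0.01), KARS (-0.06, -0.12 to 0.00) and WARS, for tryptophan (-0.09, -0.19 to 0.01), had intervals that reach 0 or beyond. The mitochondrial genes past the fold in light polysomes, LARS2 set aside, had small ratios in heavy polysomes. MARS2, for methionine, had 318 counts in labelled knockout light polysomes, against 227 in wild type light polysomes (0.74, 0.50 to 0.99), and a ratio of 0.09 in heavy polysomes. YARS2, for tyrosine, had 705 counts in labelled knockout light polysomes, against 509 in wild type light polysomes (0.73, 0.56 to 0.89), and a ratio of 0.05 in heavy polysomes; 18.1% of its exon length overlaps a gene on the other strand. TARS2 and EARS2 both stood at 0.63. NARS2 was the lowest of the 39 in light polysomes, at 1.46-fold lower in the labelled knockout (log2 -0.54, -0.69 to -0.39), just short of the fold.

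The light polysome differences moved with how heavy an mRNA was in general. Over all genes, the median log2 ratio of labelled knockout over wild type in light polysomes was -0.22 for 1547 genes with a fitted log2 of heavy over light at -1 or below, 0.06 for 3197 genes between 0 and 1, 0.38 for 2037 genes between 1 and 2, and 0.67 for 403 genes above 2. The 21 of the 39 genes with a fitted ratio between 1 and 2 had a median of 0.48 and the 7 above 2 (AARS, CARS, FARSA, HARS, MARS, TARS and VARS) a median of 0.66, close to the medians of all genes in those classes. The classes rest on the same 4 libraries as the genotype ratios. As a measure of what unequal separation of the 2 gradients could give, the wild type light library was mixed with 17.5% of the wild type heavy library, which makes the SD of heavy to light ratios equal in both gradients. Against that mixed library the cytosolic median in light polysomes was -0.25, with 0 cytosolic synthetases higher and 3 lower. Of all 11960 genes, 847 were higher and 1483 lower, against 1733 and 1484 before mixing. FARSA stood at -0.08 and MARS at 0.00. LARS2 alone stayed past the fold among mitochondrial synthetases, at 1.06. Mixing lowers the light polysome ratio of every mRNA that was heavy in wild type. The direction of these changes was therefore set in advance, and they cannot show a cause. Whether the separation of the gradients differed was not tested.

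LARS2, the mitochondrial leucine enzyme (chr3:45388561-45554726, plus strand), was past the fold in both fractions. It had 399 heavy and 299 light counts in the labelled knockout, against 211 heavy and 155 light counts in wild type. Both labelled knockout libraries lay above both wild type libraries. The labelled knockout was 1.97-fold higher in heavy polysomes (log2 0.98, counting interval 0.74 to 1.22) and 2.29-fold higher in light polysomes (1.20, 0.92 to 1.48). Of the 39 genes it alone was higher in both fractions, where 4.61% of 11363 genes were higher in both, and 0 of the 39 were lower in both, where 4.81% of all genes were.

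AARS2, for alanine (chr6:44298731-44313347, minus strand), had 239 heavy and 118 light counts in the labelled knockout, against 132 heavy and 125 light counts in wild type. The labelled knockout heavy library stood apart from the other three, with a ratio of 1.88-fold in heavy polysomes (log2 0.91, 0.61 to 1.21) and 0.18 (-0.18 to 0.53) in light polysomes. PARS2, for proline (chr1:54756898-54764523, minus strand), had 272 heavy and 149 light counts in the labelled knockout, against 465 heavy and 127 light counts in wild type. The wild type heavy library was the highest of these, and PARS2 was 1.63-fold lower in labelled knockout heavy polysomes (log2 -0.71, -0.92 to -0.49). WARS2, for tryptophan, had 241 heavy and 178 light counts in the labelled knockout, against 410 heavy and 263 light counts in wild type. Both WARS2 ratios were below 0, 1.62-fold lower in heavy polysomes (log2 -0.70, -0.93 to -0.47) and -0.30 (-0.57 to -0.03) in light polysomes, the second short of the fold. EEF1E1 was 1.58-fold lower in heavy polysomes (log2 -0.66, -0.82 to -0.51) and close to 0 in light polysomes (0.09, -0.02 to 0.20).

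**Figure D4:**
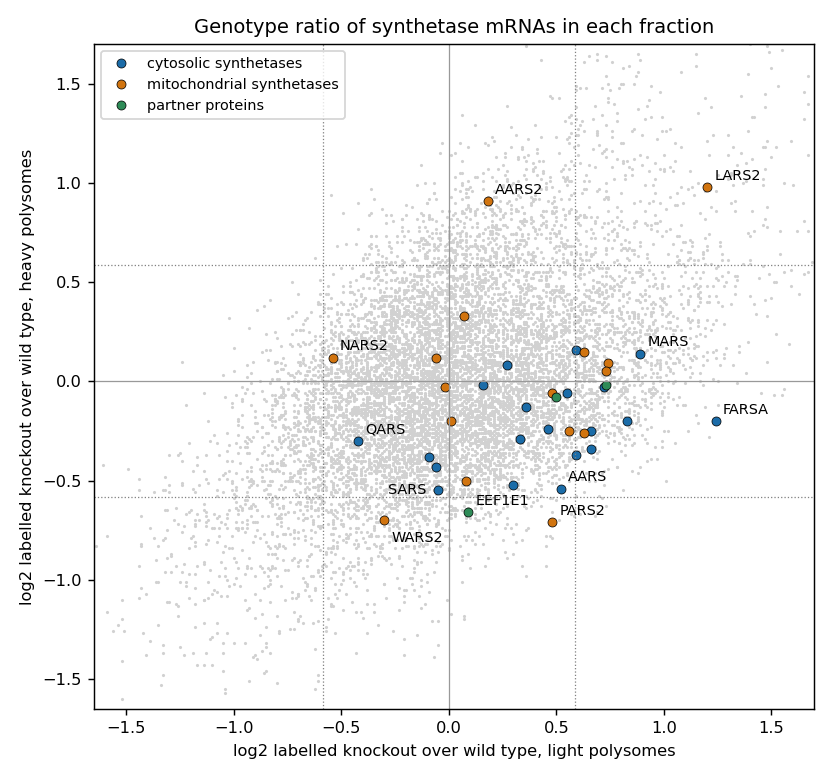
Log2 ratio of labelled knockout over wild type in light polysomes (horizontal) and heavy polysomes (vertical) for all genes with 50 counts or more in all 4 libraries (grey, within the axes) and the 39 genes (blue cytosolic, orange mitochondrial, green partners); dotted lines mark 1.5-fold. Most cytosolic synthetases lie right of 0 and just below 0, and LARS2 lies past the lines in both fractions.

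The shift, that is log2 heavy over light in the labelled knockout less the same value in wild type, joins both comparisons. It was below 0 for most synthetases, with a median of -0.59 over the 39 genes, against -0.05 over all genes. Of the 39, 20 had a shift of at least 1.5-fold towards light and 2 towards heavy (AARS2 and NARS2), where 15.3% of 10834 genes shifted towards light and 10.6% towards heavy. Cytosolic synthetases held 12 of the 20, mitochondrial synthetases 6 (CARS2, MARS2, PARS2, SARS2, TARS2 and YARS2) and partners 2 (AIMP2 and EEF1E1).

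The lowest shift was that of FARSA at -1.44 (counting interval -1.59 to -1.30), with log2 values of heavy over light of 1.82 in the labelled knockout and 3.26 in wild type. PARS2 stood at -1.19 (-1.59 to -0.79), AARS at -1.06 (-1.15 to -0.96) and LARS, for leucine, at -1.03 (-1.14 to -0.92). QARS was the cytosolic synthetase above 0, at 0.12 (0.03 to 0.21). Over all genes the median shift was -0.47 for genes at a fitted log2 ratio between 1 and 2 and -0.71 above 2, and the synthetase genes in those classes had medians of -0.62 and -0.76. Against the mixed wild type light library the cytosolic median shift was 0.09 and 0 of 20 shifted towards light, where 416 of 10834 genes did. Against that library the shift of EEF1E1 was -0.84, that of AARS2 0.79 and that of NARS2 0.56.

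The cytosolic synthetases known as targets of ATF4 had medians close to those of the other cytosolic synthetases in both fractions. The 12 of them had a median log2 ratio of labelled knockout over wild type of -0.27 in heavy and 0.44 in light polysomes, and the 8 outside the list had medians of -0.22 and 0.51. Their medians of fitted heavy over light ratio were 1.84 and 1.85. The core printed above lay in 6 of the 10 ATF4-induced promoters in the table (60%), those of AARS, CARS, IARS, MARS, NARS and TARS, and in 0 of 6 outside the list. The 6 with the core had a median of -0.30 in heavy polysomes and of 0.62 in light polysomes. The 10 cytosolic promoters without it had -0.27 and 0.30, a difference that was not tested. Fitted heavy over light ratios ran from 1.66 (IARS) to 2.85 (AARS) with the core and from 0.84 (QARS) to 2.54 (FARSA) without it. Over all genes the light polysome median rose from 0.38 at fitted ratios between 1 and 2 to 0.67 above 2. Against the mixed wild type light library, the light polysome ratios ran from -0.88 (AARS) to 0.00 (MARS) with the core and from -0.60 (SARS) to -0.08 (FARSA) without it. Of these 6, CARS for cysteine had 5263 heavy and 1470 light counts in the labelled knockout, against 6011 heavy and 1370 light counts in wild type, and TARS for threonine had 16392 heavy and 5471 light counts in the labelled knockout, against 20429 heavy and 4147 light counts in wild type.

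Several other genes of the amino acid response were lower in the labelled knockout. Of the 15 listed, 8 of 14 with enough counts were lower in heavy polysomes and 0 higher, with a median log2 ratio of -0.77, where 10.5% of all genes were lower. In light polysomes 7 of 15 were lower and 2 higher, with a median of -0.29, where 12.4% of all genes were lower and 14.5% higher. In both fractions 6 of 14 were lower, where 4.81% of all genes were. The lowest in heavy polysomes were ATF3, a stress-induced transcription factor, at -2.15 and SESN2, a leucine sensor that restrains mTORC1, at -1.47. In light polysomes SESN2 stood at -2.22 and NUPR1, a stress-induced chromatin protein with at most 83 counts in any library, at -1.91. The highest in light polysomes were SLC3A2, a subunit of amino acid exchangers, at 0.80 and PHGDH, which begins serine synthesis, at 0.74.

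ATF4 itself had 4383 heavy and 7579 light counts in the labelled knockout, against 4030 heavy and 10766 light counts in wild type. It was on light polysomes in both gradients (fitted log2 heavy over light -0.98, SE 0.31, edgeR adjusted p = 0.00337), and its genotype ratio was 0.18 (0.12 to 0.25) in heavy and -0.25 (-0.29 to -0.20) in light polysomes. Of the 12 ATF4-induced synthetases, 0 reached 1.5-fold in heavy polysomes, where 11.7% of all genes were higher and 10.5% lower. A count of 0 is below these shares, a difference that was not tested. In light polysomes 5 of the 12 were higher, as were 3 of the 8 cytosolic synthetases outside the list, where 14.5% of all genes were. Against the mixed wild type light library 0 cytosolic synthetases were higher and 3 lower, where 847 of 11960 genes were higher and 1483 lower.

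**Figure D5:**
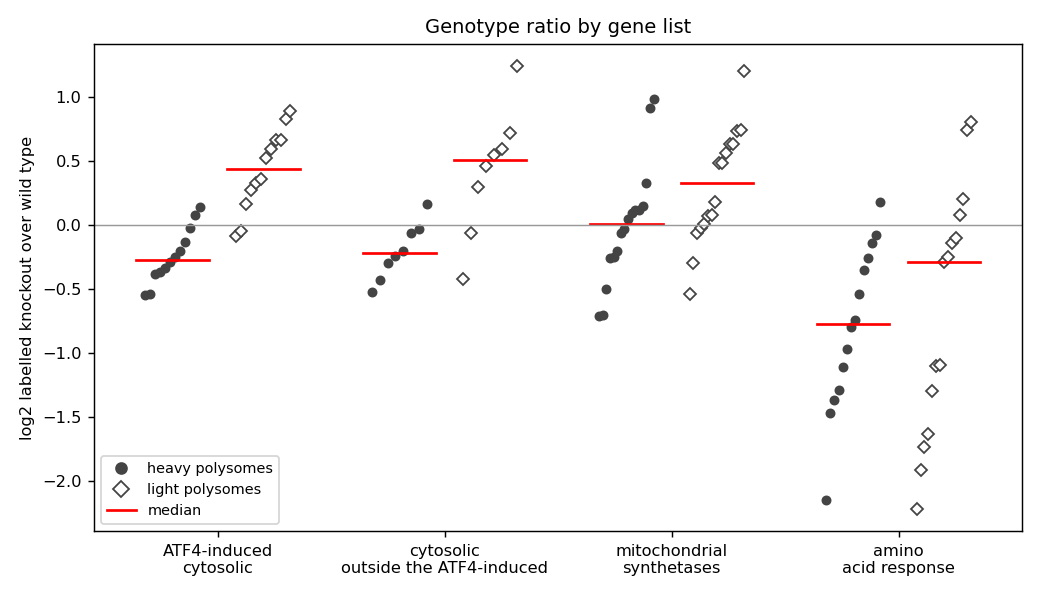
Log2 ratio of labelled knockout over wild type in heavy (filled circles) and light polysomes (open diamonds) for 12 ATF4-induced and 8 other cytosolic synthetases, 16 mitochondrial synthetases and 15 genes of the amino acid response (14 in heavy polysomes, where NUPR1 had under 50 counts); each point is a gene and red lines are medians. Both cytosolic lists lie at similar medians, and the amino acid response reaches from -2.15 to 0.18 in heavy polysomes.

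Genes that mature, export or deliver tRNA had a lower median than the synthetases. Of 20 listed, 19 were tested (AARSD1 had at most 3 counts in any library), and 8 were called heavy, 2 light and 9 neither, where 30.0% of all genes were called heavy and 29.3% light, with a median fitted log2 ratio of 0.40. The heaviest were RTCB, the tRNA splicing ligase, at 2.25 (SE 0.28, edgeR adjusted p = 1.05e-13) and GATB, a subunit of the mitochondrial amidotransferase that makes glutaminyl-tRNA, at 1.69 (SE 0.27). The light ones were XPOT, the tRNA export receptor, at -0.86 (SE 0.29, edgeR adjusted p = 0.00714) and GATC, another subunit of that amidotransferase, at -0.83 (SE 0.26). By genotype, 0 of the 19 were higher and 1 lower in heavy polysomes (MTFMT, the mitochondrial formyltransferase, at -0.62), and 4 higher and 1 lower in light polysomes, with medians of -0.11 and 0.14. The background was 11.7% higher and 10.5% lower in heavy polysomes, and 14.5% higher and 12.4% lower in light polysomes. The difference of these few counts from the background was not tested.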

How the data were processed

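The deposited values are whole-number counts of reads per gene symbol, apparently not normalized, because the library totals differ. CASAVA, STAR, HTSeq and the build hg19 were used, per the submitters' processing notes; their versions and the strand setting were not given in the sources used here, so reads from genes that overlap on opposite strands cannot be told apart.

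The members and gene lists were chosen with earlier results of these data known. Named were DICER1, any of the 39 genes, ATF4, TARSL2 and the 2 highest and 2 lowest of the 2 other lists (MTFMT was added after its value was seen). Heavy over light polysomes was fitted over all genes with edgeR 4.0.16 in R 4.3.3 (quasi-likelihood test, TMM, filterByExpr), each gradient being a block because it gave both fractions; the script was tested on simulated data. Genotype ratios are log2 ratios of TMM-scaled CPM with a prior count of 2 and 95% counting intervals, which cover counting error alone, as PCR reads without identifiers are not separate molecules. Alternatives were RLE and total scaling, DESeq2 1.42.0, other filters, folds and prior counts, no block, each gradient alone and the mixed library. Symbols were matched to GENCODE 44 (24163 of 26364 matched, all 39 members among them) for lengths, positions and exon overlaps on GRCh38; the counts stay those made on hg19. RNA45S5, the ribosomal RNA precursor, took 2.61% to 5.97% of the counts. Tables and figures used Python 3.11.15 with pandas 2.3.3, numpy 2.4.6 and matplotlib 3.10.9.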

Additional observations from a re-analysis of the deposited data

Results flagged for a closer look

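For 15 of the 39 genes the ratio of labelled knockout over wild type was below 0 in heavy polysomes and above 0 in light polysomes, with counting intervals that leave out 0 on both sides. Of 10834 genes 11.0% did the same, and the share was 23.1% of 2037 genes with a fitted log2 of heavy over light between 1 and 2, where 10 of 21 synthetase genes did so, and 33.5% of 403 genes above 2, where 5 of 7 did. Counting intervals narrow as counts rise, and the shares over all genes take in every gene with 50 counts in all 4 libraries. These shares were therefore not matched for depth to the synthetase genes. The difference between fractions was not tested, since there is 1 library a group. As log2 in heavy minus log2 in light polysomes, it was -1.44 for FARSA, -1.19 for PARS2, -1.06 for AARS, -1.03 for LARS, -0.99 for IARS, -0.96 for NARS, -0.91 for TARS, -0.89 for TARS2, -0.83 for DARS, -0.81 for SARS2, -0.71 for FARSB, -0.62 for GARS, -0.62 for HARS, -0.58 for AIMP1 and -0.49 for CARS. Against the mixed wild type light library, 4 of them stood above 0, AARS at 0.34, CARS at 0.29, HARS at 0.15 and GARS at 0.04, and PARS2 stood lowest at -0.55.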

How the results depend on the processing

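The fit of heavy over light called 20 of 20 cytosolic synthetases under every alternative with a test but 1: without the gradient block, QARS missed the threshold (0.83). Without the block, which pairs the heavy and light library of a gradient, 2857 genes were called heavy and 2183 light, against 4074 and 3977 with it, and 7 mitochondrial synthetases in place of 11. With libraries scaled by their totals, the median over all genes moved to -0.30 (from -0.07), the calls split into 3195 heavy and 5023 light, mitochondrial heavy calls fell to 7 with a median of 0.46, and RARS2 turned to -0.04. DESeq2 called 3836 heavy and 3121 light. AARS2 and WARS2 lost their call under total scaling, at 50 counts in all libraries, without the block and with DESeq2, CARS2 under these and without a filter, and MARS2 under total scaling and without the block. With each gradient left out in turn, the cytosolic median ran from 1.47 to 2.16 and the mitochondrial median from 0.65 to 0.95.

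For the genotype ratios, total scaling gave a cytosolic median of -0.19 in heavy polysomes, and in light polysomes a cytosolic median of 0.41 with 4 cytosolic and 3 mitochondrial genes higher and 1 mitochondrial gene lower. It gave a cytosolic shift of -0.52, 3 mitochondrial genes shifted towards light, and 1910 genes of all shifted towards heavy and 987 towards light. With RLE factors 1 mitochondrial gene shifted towards heavy. At a fold of 2, 439 genes of all were higher and 350 lower in heavy polysomes, with 0 mitochondrial genes either way and 0 partners lower. In light polysomes that fold left 500 higher and 446 lower, with 1 cytosolic (FARSA), 1 mitochondrial (LARS2) and 0 partner genes higher. For the shift it left 98 towards heavy and 257 towards light, with 3 cytosolic genes and 1 mitochondrial gene towards light, 0 mitochondrial genes towards heavy and 0 partners.

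Against the mixed wild type light library, 847 genes of all were higher and 1483 lower in light polysomes. Of the members, 0 cytosolic, 1 mitochondrial and 0 partner genes were higher and 3 cytosolic genes lower. The light polysome medians were -0.25 (cytosolic) and -0.02 (mitochondrial). Of the 16 cytosolic genes above 0 in light polysomes 15 turned below 0, among them these past 1.5-fold before mixing: FARSA (-0.08), IARS (-0.03), LARS (-0.01), NARS (-0.19), RARS (-0.09), TARS (-0.21) and VARS (-0.32). Of all genes 416 shifted towards light, with 0 cytosolic, 0 mitochondrial and 1 partner gene, 1 mitochondrial gene shifted towards heavy, and the cytosolic median shift was 0.09. Of the 19 cytosolic shifts below 0, 11 turned above 0, among them these past 1.5-fold before mixing: AARS (0.34), GARS (0.04), HARS (0.15), MARS (0.14) and VARS (0.29). The mixing itself adds heavy mRNAs to the wild type light library; the cause of the other changes was not tested. The depth limits the mitochondrial genes most, whose lowest counts were those of AARS2.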
